A study of Homo sapiens with 2 samples.

Results

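The 53 genes described here carry the symbols given to DEAD-box and DEAH-box RNA helicases. They were chosen by name: protein-coding genes whose symbol is DDX or DHX followed by a number and at most 1 letter, with the Y-linked gene left out. The rule found 37 DDX genes and 16 DHX genes among the 62700 genes of the table, and 2 further genes with such symbols were left out because they are pseudogenes. RIG-I, an RNA sensor that once carried a DDX symbol, is listed under RIGI and was counted among the other RNA helicases.

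RNA helicases of these families bind RNA and use ATP to unwind short duplexes or to strip proteins from RNA. DEAD-box proteins, most of which are named DDX, open a duplex locally, whereas many DEAH-box proteins (DHX) move along a strand. The names come from the amino acids of motif II, the part of the helicase core that binds magnesium and ATP. A symbol does not fix this motif, which read DEAH in DDX11. In DHX9, DHX29, DHX30, DHX34, DHX36, DHX57, DHX58 and DDX60L it read neither DEAD nor DEAH. The search, for DEAD or for D, E, any residue and H, found none in DDX21, DDX39A, DDX39B, DDX50, DDX52, DDX60 and DHX32. The members serve nearly every step in the life of an RNA: splicing, export, ribosome assembly, translation, decay and the sensing of foreign RNA. A few are known for expression in the germline, among them DDX4 (the germ cell marker VASA), DDX25, DDX43 and DDX53. DDX43 and DDX53 are also known as cancer/testis antigens, which are genes active in testis and in some tumours but in few other adult tissues.

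The stretches of 60 coding bases around motif II are shown for 5 members, to set DDX53 beside DDX43, DDX5 (the most abundant member), DDX4 (the germ cell marker) and DHX15 (a DEAH-box member). Capitals mark the 12 bases that code for motif II. All were read from GENCODE 29 on GRCh38, 5′ to 3′ on the coding strand.
DDX53: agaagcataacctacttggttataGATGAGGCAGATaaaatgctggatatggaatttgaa
DDX43: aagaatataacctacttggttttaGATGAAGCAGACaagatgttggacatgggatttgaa
DDX5: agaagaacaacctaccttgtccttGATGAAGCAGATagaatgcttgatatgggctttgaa
DDX4: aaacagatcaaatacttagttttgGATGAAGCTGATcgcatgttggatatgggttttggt
DHX15: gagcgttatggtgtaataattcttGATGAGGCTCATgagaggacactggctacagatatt

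The stretch of DDX53 lies at chrX:23001159-23001218 on the plus strand, inside the only exon of the gene. That of DDX43 is cut by an intron: 18 bases lie in exon 9 at chr6:73408084-73408101 and 42 bases in exon 10 at chr6:73409248-73409289, both on the plus strand. The other stretches lie in exon 7 of DDX5 (chr17:64503221-64503280, minus strand), exon 17 of DDX4 (chr5:55792650-55792709, plus strand) and exon 4 of DHX15 (chr4:24556299-24556358, minus strand). Of the 60 bases, DDX53 shared 49 with DDX43, 48 with DDX5, 40 with DDX4 and 20 with DHX15. Over the whole coding sequence, DDX53 and DDX43 were identical at 72.9% of 1871 aligned bases. Their longest run in common was 22 bases, CAGTGAAGCAAAATATAATTGT, which starts at coding base 1319 of DDX53 and 1379 of DDX43. No 31-base word occurred in both genes, so no read of that length matches both exactly.

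The libraries come from TCam-2, an established human line derived from a seminoma, a germ cell tumour of the testis. The only group is labelled as DDX53 overexpression, from cells that the design says were transduced with DDX53-FLAG, with 2 replicates and polyadenylated RNA in strand-specific libraries. No read specific to the construct is in the tables. The GFP-FLAG and untransduced controls that the design names were not analysed here, so no value below measures an effect of DDX53. Neither the promoter of the construct nor whether the cells are 1 clone is given in the sources used here. Nothing says that the replicates came from separate cultures, so the spread between them may be technical.

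The tables held 24137664 reads in replicate 1 and 22198929 in replicate 2. The limit that a count of 0 allows, 3 reads, equals 0.124 and 0.135 CPM (reads per 1000000 reads in genes). Intervals cover counting error only. All 10 markers of seminoma and primordial germ cells reached 1 CPM in both libraries, with a summed level of 5171 and 5146 CPM. None of 6 markers of later germ cells did (summed 0.539 and 0.135 CPM). Neither library held a read of TNP1, SYCP1, DAZL or PRM1. Of 6 markers of testis somatic cells only GATA4 was detected (summed 41.4 and 39.6 CPM), and of 5 markers of blood and stroma only COL1A1 was (summed 9.74 and 12.3 CPM). PTPRC was at 0.

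Most of the helicases were expressed in these cells. Of the 53 members, 50 reached 1 CPM in both libraries, beside 61.7% of all 19831 protein-coding genes. DHX58, DDX4 and DDX60L did not. The members held 156578 reads in replicate 1, which is 0.649% of all reads (95% Wilson interval 0.645 to 0.652%), and 141308 reads in replicate 2, which is 0.637% (0.633 to 0.640%). The 5 members with the most reads took 41.5% and 41.4% of these.

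Levels of different genes are given as CPM per kilobase of the mean transcript length, in which each transcript was weighted by its TPM. On this scale the median over the 53 members was 20.02 CPM per kb, beside 10.8 over the detected protein-coding genes. Of the members, 39 lay above that second value, 19 were in the highest 25% of detected protein-coding genes and 6 were in the highest 10%, which began at 75.5 CPM per kb.

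**Figure D1:**
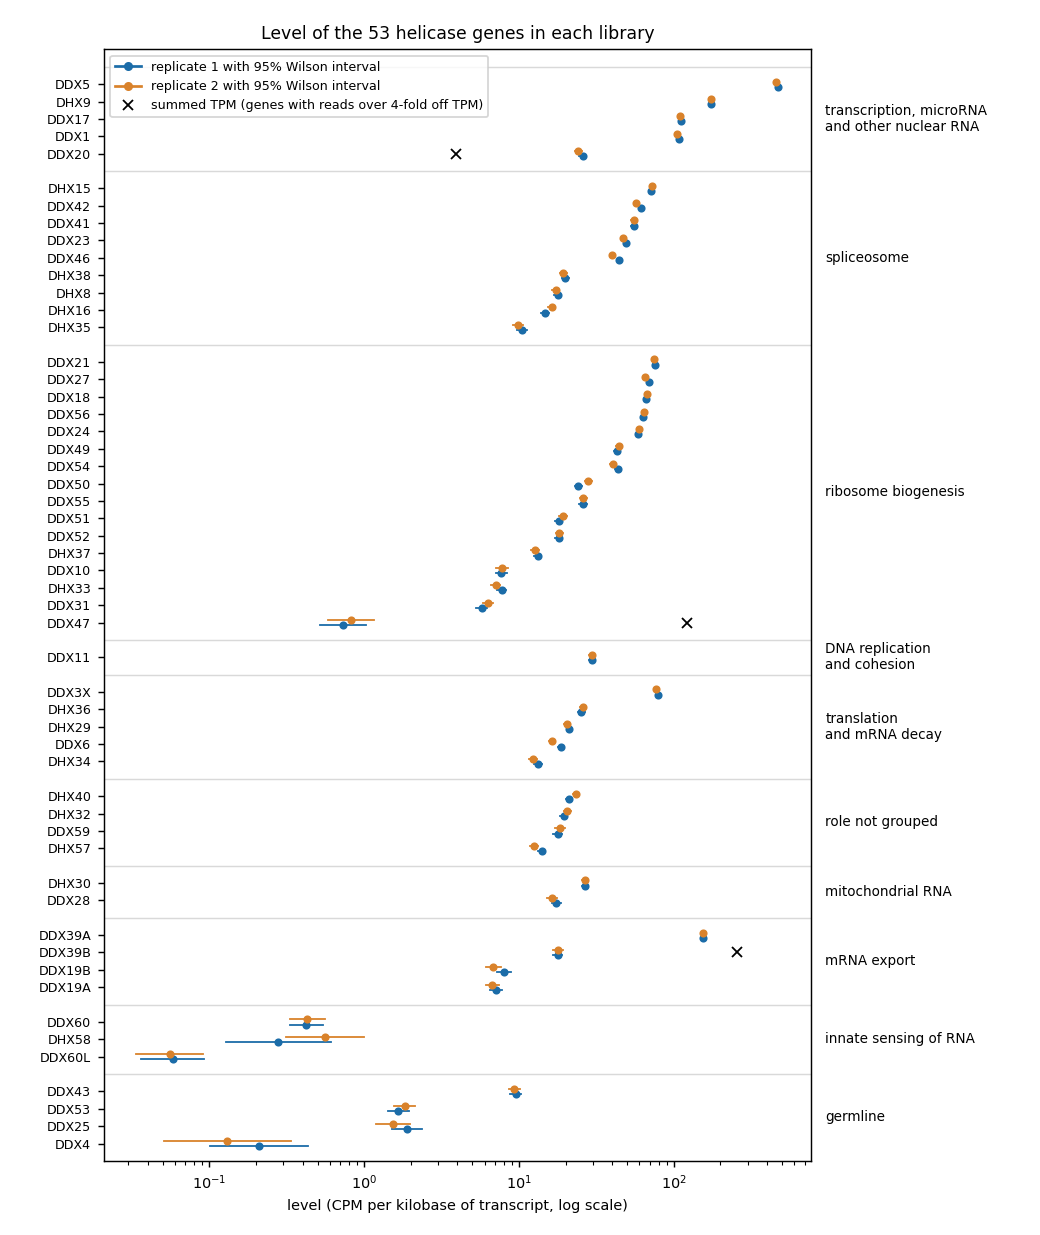
Level of each of the 53 helicase genes (CPM per kilobase of transcript, log axis), grouped by role and ordered by the mean within a role, with 1 point per library, its 95% Wilson interval, and a cross at the mean summed TPM for genes whose reads were over 4-fold off TPM. DDX5 is highest at 473 and 458 CPM per kb, and in the germline group DDX43 (9.56 and 9.35) stands above DDX53 (1.67 and 1.82).

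DDX53 stood near the bottom of the family in both libraries labelled as overexpressing it. Without control libraries, these values do not show whether it was raised. The gene is on GRCh38 chrX:22999961-23003589, plus strand. It had 146 reads in replicate 1 and 147 in replicate 2, or 6.05 and 6.62 CPM. Per length the level was 1.67 CPM per kb (Wilson interval 1.42 to 1.96) and 1.82 CPM per kb (1.55 to 2.14), a mean of 1.75 ± 0.112 (SD, n = 2). Its summed TPM was 1.97 and 2.13. The value placed DDX53 at rank 47 of 53, and 13.3% of the detected protein-coding genes were lower. In both libraries 46 members were higher with separate intervals and 5 were lower. Only DDX25 could not be separated from it.

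DDX43, on GRCh38 chr6:73394748-73417569, plus strand, had 577 and 519 reads, or 23.9 and 23.4 CPM. Per length the level was 9.56 CPM per kb (8.81 to 10.4) in replicate 1 and 9.35 CPM per kb (8.58 to 10.2) in replicate 2, a mean of 9.46 ± 0.148 (SD, n = 2). It took rank 41, and 46.5% of the detected protein-coding genes were lower. In both libraries 39 members were higher and 11 lower, while DHX35 and DDX19B could not be separated from it. The level of DDX43 per length was 5.74 times that of DDX53 in replicate 1 and 5.12 times in replicate 2. With coding length as the divisor, which leaves out the untranslated parts, the mean ratio was 3.63. This alternative was chosen after the data were seen, and the sources used here do not say which part of the DDX53 transcript the construct carries. Reads of the construct and of the endogenous gene cannot be told apart in a count per gene.

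The neighbours of DDX53 and DDX43 in the order came from several roles. Above DDX43 stood DHX35, a spliceosome helicase, at 10.4 and 9.82 CPM per kb, and DHX34, which acts in nonsense-mediated decay, at 13.2 and 12.3. Below it were DDX10, a ribosome biogenesis factor, at 7.69 and 7.76 CPM per kb, and DHX33 at 7.72 and 7.10. Above DDX53 stood DDX31 at 5.74 and 6.31 CPM per kb and DDX19A at 7.07 and 6.73. Below it were DDX25 at 1.89 and 1.54 CPM per kb, from 79 and 59 reads, and DDX47, whose reads and TPM disagree, at 0.731 and 0.819. DDX53 was lower than DDX25 in replicate 1 and higher in replicate 2. Over the 52 neighbouring pairs in the whole order, 11 differed in both libraries with separate intervals and 41 did not.

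Each member was placed in a single role group, so a group need not hold every helicase with that role. Of the 4 members placed in the germline group, 3 were detected. DDX43 was highest and DDX4 lowest. DDX4 had 7 reads in replicate 1 and 4 in replicate 2, or 0.210 and 0.130 CPM per kb, which is close to the limit of detection. DDX25, a helicase of haploid male germ cells, had a level like that of DDX53. The median of the group was 1.73 CPM per kb, the second lowest of the groups with more than 1 member.

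The members placed under transcription, microRNA processing and other nuclear RNA steps formed the group with the highest median, 110.7 CPM per kb over 5 genes. DDX5 (p68), a coactivator that also works with the microRNA processor Drosha, was the highest helicase in both libraries at 473 and 458 CPM per kb. DHX9 (RNA helicase A) followed at 174 CPM per kb in each library. DDX17 (p72), the closest relative of DDX5, had 111 and 110 CPM per kb, and DDX1 had 109 and 105. DDX20 (Gemin3), a part of the SMN complex that assembles snRNPs, was lowest of the group at 25.9 and 24.2 CPM per kb.

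All 9 members placed in the spliceosome group were detected, with a median of 41.9 CPM per kb. DHX15, which takes spent spliceosomes apart, was highest at 71.0 and 72.3 CPM per kb, and DHX35 was lowest. DDX42 at 61.7 and 56.9 CPM per kb, DDX41 at 55.3 and 55.5, DDX23 at 49.4 and 46.9 and DDX46 at 44.0 and 39.8 all exceeded DHX38, DHX8 and DHX16, whose means were 19.7, 17.5 and 15.5 CPM per kb.

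The 16 ribosome biogenesis members had a median of 26.1 CPM per kb, and all were detected. DDX21, a nucleolar helicase, led the group by reads at 76.2 and 74.7 CPM per kb, and DDX47 was lowest by reads. The order turned with summed TPM, where DDX47 had 120 and 124, DDX56 had 105 and 107 and DDX21 had 100.2 and 95.5. Next to DDX21 came DDX27 at 69.2 and 65.5 CPM per kb, DDX18 at 65.8 and 66.9 and DDX56 at 63.4 and 64.4. DDX49, DDX54 and DDX24 also exceeded 40 CPM per kb in both libraries.

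Of the 5 members of translation and mRNA decay, DDX3X, which helps initiation on structured mRNAs, was highest at 79.3 and 77.2 CPM per kb. DHX34 was lowest. DHX36, which unwinds G-quadruplexes, had 25.4 and 25.9 CPM per kb, and DHX29, an initiation factor, had 21.2 and 20.4. Among the mRNA export members DDX39A stood at 154 CPM per kb in each library, the highest by reads, and DDX19A was lowest by reads. With summed TPM both places turned: DDX39B (268 and 244) exceeded DDX39A (214 and 214), and DDX19B (19.8 and 20.6) was below DDX19A (40.0 and 41.4). The mitochondrial members were DHX30 at 26.7 and 26.8 CPM per kb and DDX28 at 17.4 and 16.4. DDX11, which acts in DNA replication and sister chromatid cohesion, had 29.6 and 29.7 CPM per kb. The 4 members without a role group, DDX59, DHX32, DHX40 and DHX57, ranged from a mean of 13.3 to 22.1 CPM per kb, with DHX57 lowest and DHX40 highest.

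The 3 members placed in the group for innate sensing of RNA, together with DDX4, took the lowest 4 places of the order. DDX60 had 62 and 58 reads, or 0.423 and 0.430 CPM per kb. DHX58 (LGP2), a relative of RIG-I that lacks signalling domains, had 6 and 11 reads, or 0.280 and 0.558 CPM per kb. DDX60L had 17 and 15 reads and 0 TPM over the transcripts assigned to it. Its level of 0.0579 and 0.0556 CPM per kb therefore used the merged exonic length. The intervals of DDX60 and DHX58 overlapped in both libraries.

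Each gene was measured by reads per gene and by TPM per transcript, and the measures were set against each other. To predict the reads of a gene, TPM was multiplied by the length of each transcript, summed and scaled to the total reads of the library. The reads lay over 4-fold from this value in both libraries in 3 of the 50 members that reach 1 CPM or 1 TPM in both, beside 6.21% of the protein-coding genes judged in the same way. They were DDX47, DDX39B and DDX20. DDX60L, which was too low to be judged, also lay apart.

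DDX47, a ribosome biogenesis factor, had 32 and 33 reads but 120 and 124 TPM. Its reads were below expectation by a log2 ratio of -6.73 in replicate 1 and -6.64 in replicate 2. On the same strand, 36.5% of its exonic length overlapped APOLD1, a gene with 127 and 102 reads. DDX39B (UAP56), which recruits the export machinery, had 32.5 and 32.7 CPM but 268 and 244 TPM, log2 ratios of -3.31 and -3.23. A readthrough gene, ATP6V1G2-DDX39B, covered 30.8% of its exonic length and had no read in either library. DDX19A had ratios of -1.92 and -2.05 and shared 23.8% of its exonic length with another gene on its strand. DDX19B shared 15.7% with the same gene and had ratios of -0.77 and -0.98. These were the 4 members with more than 10% of such overlap, and 45 members had none. These 4 had fewer reads than their TPM predicts in both libraries. The part of the overlap in these values was not tested.

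DDX20 deviated the other way. It had 56.3 and 52.7 CPM but only 5.07 and 2.76 TPM, log2 ratios of 2.69 and 4.26, and no overlap on its strand. Summed TPM covers only the transcripts that could be assigned to genes, 201667 of the 251955 deposited. Whether transcripts of DDX20 were among those left out was not tested. By TPM DDX20 would fall from rank 24 to 47, while DDX39B would rise to rank 2, DDX47 to rank 7 and DDX19A to rank 21. The levels of DDX47, DDX39B, DDX19A and DDX20 are therefore uncertain. DDX17, with a log2 ratio of 0.92 in each library, would fall from rank 4 to 12, below DDX1 at rank 5. DDX19B would rise from rank 44 to 37. The places of DDX17 and DDX19B are thus uncertain to a lesser degree. For DDX53 and DDX43 the measures differed less: DDX53 took rank 49 and DDX43 rank 42 by TPM.

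**Figure D2:**
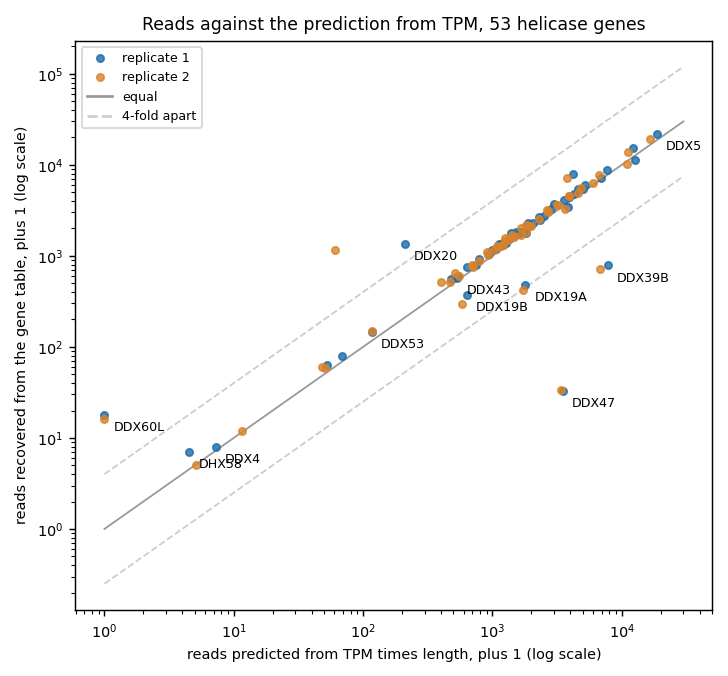
Reads of each helicase gene in the gene table against the reads predicted from its TPM, both plus 1 on log axes, with 1 point per library, a solid line for equal values and dashed lines for 4-fold. DDX47 and DDX39B lie below the dashed lines and DDX20 and DDX60L above them in both libraries, while DDX53 and DDX43 lie near the solid line.

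Related members were compared by their ratio of levels per length. DDX5 was 4.20 times DDX17 (6.76 by TPM), with 68.0% identical coding sequence. DDX21 was 2.88 times its neighbour on chromosome 10, DDX50, and 2.82 times by TPM. DDX3X was far above DDX4, the closest relative in the list, at 78.3 and 0.170 CPM per kb on average. DHX15 was 4.62 times DHX16, DHX8 was 0.891 times DHX38, and DHX36 was 0.147 times DHX9. DHX29 was 1.56 times DHX57. In 2 pairs the direction depended on the measure. DDX39A was 8.66 times DDX39B by reads but 0.835 times by TPM. DDX19A was 0.931 times DDX19B by reads and 2.01 times by TPM. The latter pair shares 94.2% of its coding sequence, 752 words of 31 bases and a longest run of 318 bases, so reads could be split between them. DDX50, DHX40 and DDX11 share 21.0%, 17.1% and 24.8% of their 31-base words with other genes, mainly pseudogenes, and their counts are uncertain in that respect. For DDX53 the share was 0.0599% and for DDX43 2.6%.

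DDX53 is written in 1 exon, whereas most of the family is split. DDX53 and DDX28 were the only members whose annotated transcripts hold 1 exon, or 3.77% of the members, beside 5.04% of 19579 protein-coding genes. The reference transcripts of all 53 had a median of 17 exons, up to 38 in DDX60 and DDX60L. DDX53-201 is 3629 bases long, with 97 bases before the coding sequence of 1896 bases and 1636 bases after it. DDX28, which works on the mitochondrial ribosome, is 2169 bases long with 1623 coding bases. DDX43-201 has 17 exons in 2513 bases and codes over 1947 bases, so it has a coding length near that of DDX53 but a much shorter untranslated part. DDX25 has 12 exons and DDX4 has 22. The median coding length over the family was 2223 bases, with a range from 1284 to 5139 bases.

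**Figure D3:**
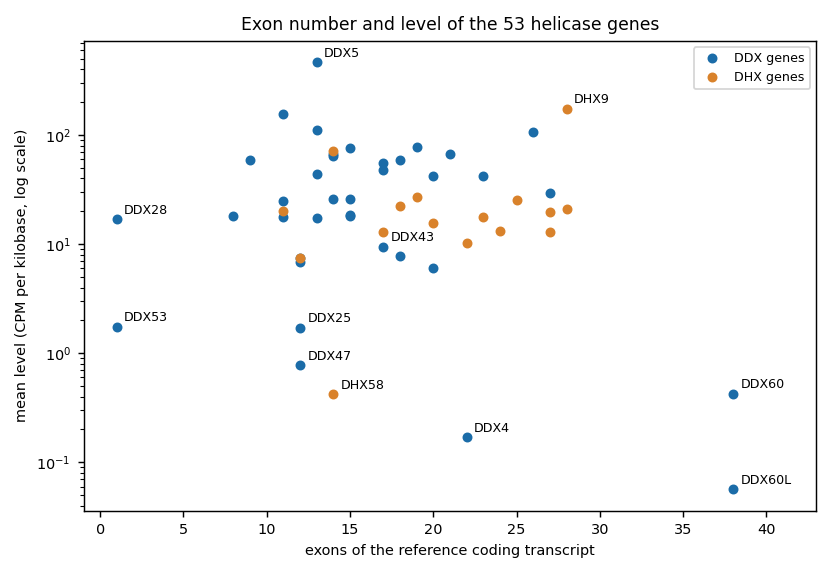
Exons of the reference coding transcript of each of the 53 helicase genes against its mean level (CPM per kilobase, log axis), with DDX and DHX genes in 2 colours. DDX53 and DDX28 sit at 1 exon, and DDX43 sits at 17 exons, the family median.

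The isoform shares are shares of the summed TPM of a gene and carry no known depth. They could be computed for 49 members with at least 1 TPM in both libraries. DDX53 and DDX28 have 1 annotated transcript each, which held 100% by construction. DDX43 has 3, and DDX43-201 held 98.7% in replicate 1 and 100% in replicate 2, so nearly all of its TPM came from the full-length coding form. DDX1-201 was as dominant, at 99.9% and 99.8%. Over the 49 members the median share of the top transcript was 83.9% in replicate 1 and 86.3% in replicate 2, beside 74.2% and 74.9% over 11841 protein-coding genes.

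DDX19B was the only member whose top transcript differed between the libraries, beside 10.5% of the protein-coding genes. Its transcript 203 held 32.2% in replicate 1 and 18.9% in replicate 2, and transcript 207 held 19.6% and 44.0%. The lowest top shares in both libraries belonged to DDX54, whose transcript 202 led with 24.9% and 35.6%, and DDX5. DDX19B was next in replicate 1, whereas in replicate 2 DHX36 was, with 39.8%.

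In 2 members the top transcript was no protein-coding one in both libraries, beside 6.93% of the protein-coding genes. DDX52-215 held 80.9% and 82.5% and DDX20-204 held 60.8% and 95.9%. Both are annotated as targets of nonsense-mediated decay, the pathway that removes mRNAs with early stop codons. In DDX20 the coding transcript DDX20-201 held 39.2% in replicate 1 and was listed at 0 in replicate 2. The TPM of DDX20 predicts only 210 and 60.1 reads, beside 1358 and 1169 recovered. Its shares, and the transcript length taken from them, are therefore uncertain.

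DDX5 also had most of its TPM on transcripts annotated as decay targets, 56.4% and 54.4%, led by DDX5-203 with 25.9% and 22.9%. Its coding transcripts held 34.2% and 37.8%, of which DDX5-210 had 30.0% and 30.4%. So the highest helicase by reads had less than 40% of its assigned TPM on transcripts that GENCODE 29 types as protein-coding. Whether transcripts left out of the assignment would change this share was not tested. Transcripts annotated as retaining an intron held 41.3% and 46.3% of DDX51, 29.1% and 29.5% of DDX24 and 19.8% and 22.0% of DHX36. Over the 49 members the median share of protein-coding transcripts was 91.9% and 93.1%, beside 96.5% and 96.7% over the protein-coding genes.

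**Figure D4:**
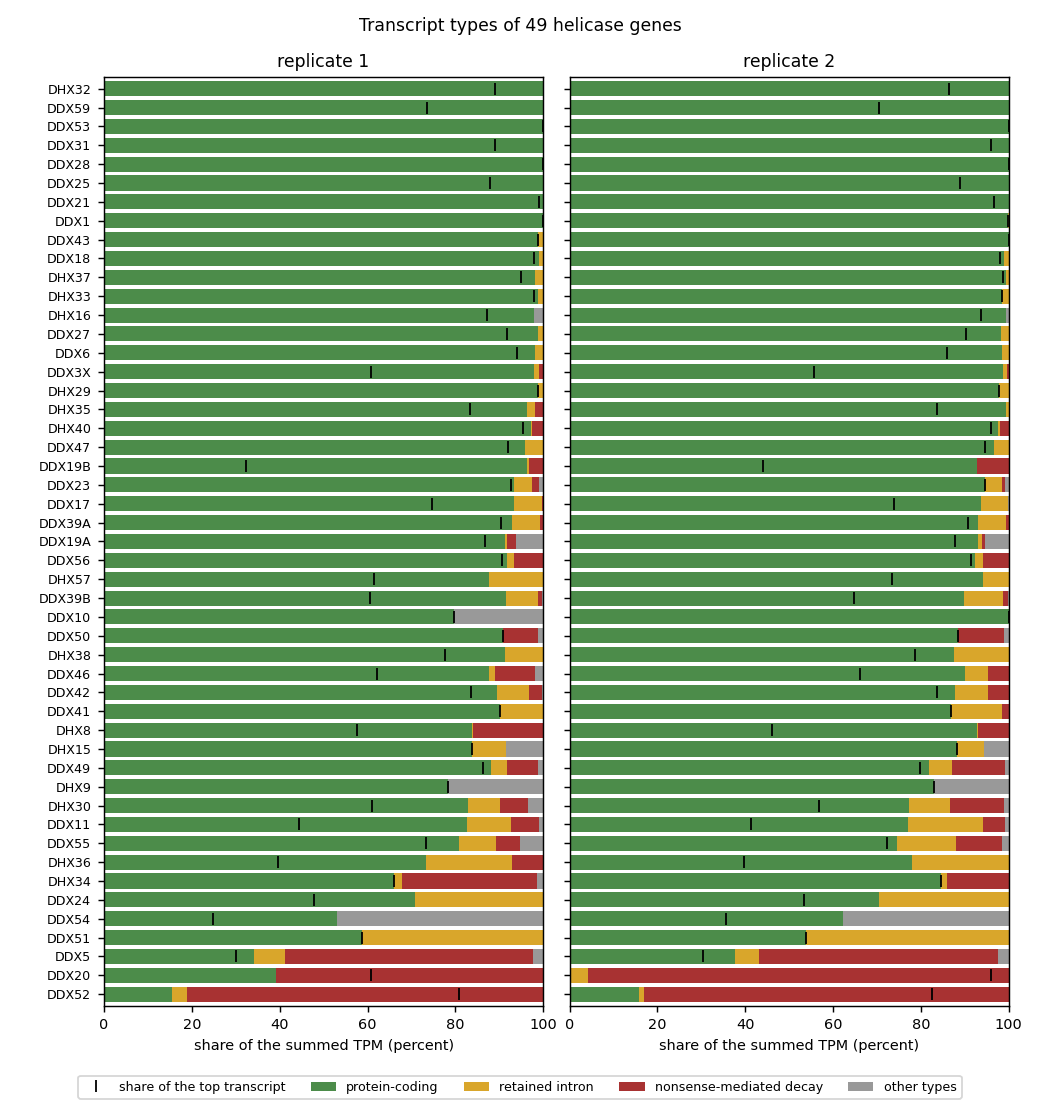
Share of the summed TPM (percent) held by protein-coding, intron-retaining, decay-target and other transcripts in 49 helicase genes, with 1 panel per library and a black tick at the share of the top transcript. Decay targets take most of DDX52, DDX20 and DDX5 at the bottom, and DDX53 and DDX43 are all or nearly all protein-coding. The shares of DDX20 are uncertain, because its reads far exceed those its TPM predicts.

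The replicates were compared gene by gene with an exact binomial test on the reads (edgeR, adjusted over 15299 genes). It sets 2 libraries against counting noise and has no replicate of its own. Of the 51 members tested, 6 were called, beside 13.1% of all genes tested. They were 2 of 51 higher in replicate 2, beside 6.78% of all genes, and 4 of 51 lower, beside 6.35%. Among members of at least 10 CPM it was 6 of 46, beside 19.1% of protein-coding genes at that level.

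DDX6, a decapping activator found in P-bodies, had 112 CPM in replicate 1 and 97.9 in replicate 2, a log2 difference of -0.19 (edgeR adjusted p = 0.00029). DDX46, which acts at the branch site, had 182 and 165 CPM (-0.14, adjusted p = 0.00058). DDX42 had 224 and 207 CPM (-0.12, adjusted p = 0.0031). DDX50 was higher in replicate 2, at 57.4 and 66.5 CPM (0.21, adjusted p = 0.00095), as was DHX40, at 74.2 and 82.2 CPM (0.15, adjusted p = 0.015). DDX5 had 905 and 876 CPM (-0.05, adjusted p = 0.047), a call that was lost with the factors deposited by the authors (adjusted p = 0.11).

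Among the 50 members whose mean reached 1 CPM, the largest difference on the log2 scale was -0.2242, in DDX25. Their median difference was -0.012, with 23 above 0 and 27 below. The median size was 0.056, beside 0.092 over protein-coding genes. DDX53 and DDX43 were not called.

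**Figure D5:**
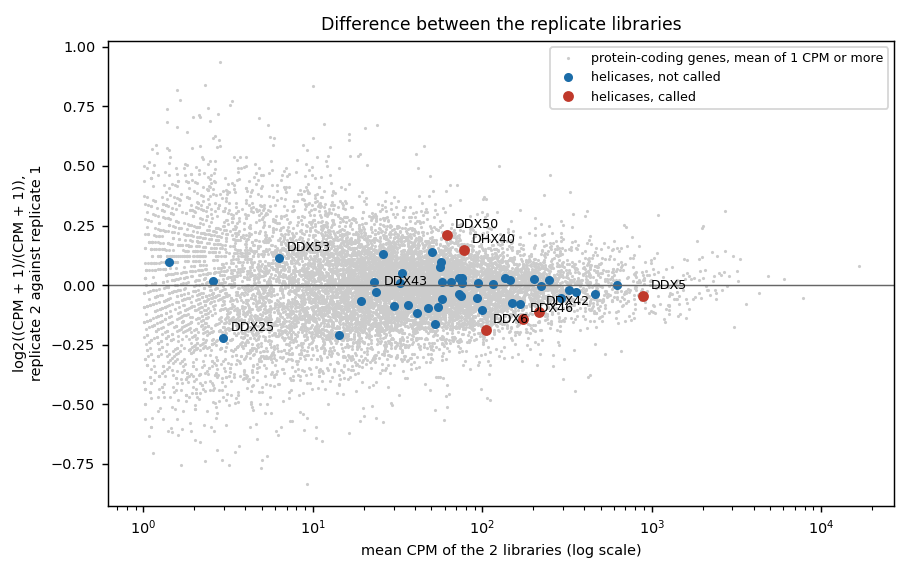
Log2((CPM + 1)/(CPM + 1)), replicate 2 against replicate 1, by mean CPM (log axis) for helicase genes called by the binomial test (red) and not called (blue), over protein-coding genes (grey), all with a mean of 1 CPM or more. The 6 called helicases lie within 0.22 of 0, with DDX50 and DHX40 above and DDX42, DDX46, DDX5 and DDX6 below.

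Of 25 RNA helicases outside the naming rule, 22 were detected. The binomial test of these 22 called 2 higher in replicate 2 (EIF4A2 and TDRD9) and 5 lower, among them AQR and DICER1. The shares of all genes tested were 6.78% and 6.35%. Most of the 22 exceeded 10 CPM, a level at which 19.1% of protein-coding genes were called in either direction. EIF4A2, a translation initiation factor, was at 248 and 276 CPM per kb, above every member but DDX5. EIF4A3, the helicase of the exon junction complex, was at 164 and 157, and TDRD12, a piRNA pathway helicase, at 116 and 115. The reads of TDRD12 exceeded those its TPM (50.6 and 52.4) predicts, by log2 ratios of 1.75 and 1.73. By TPM it was below SNRNP200 (131 and 124) and MOV10 (75.1 and 63.8), so its place is uncertain. RIGI and MOV10L1 were lowest. EIF4A1 had only 38 and 44 reads but 978 and 1013 TPM, so its count is uncertain. All 32 listed cofactors of the helicases, such as G-patch proteins and exon junction partners, were detected. All 32 were tested, of which none was called higher and 3 were called lower (ALYREF, GPATCH4 and THOC2), beside the same 6.78% and 6.35%. Most of the cofactors also exceeded 10 CPM, where the share in either direction was 19.1%.

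Promoters of 48 members, 250 bases before to 50 after the start, were taken from RefSeq (GRCh38.p14). They held a median of 24.5 CG dinucleotides (read on 1 strand, the same on both), beside 22.0 over 15843 protein-coding genes. At least 1 CG occurs in 98.1% of those promoters. DDX43 had 21, DDX25 had 16 and DDX53 had 14. The windows of several members, among them DDX4, DHX32, DDX19B and DDX60L, lie inside these genes as GENCODE 29 draws them. They enter the median, but their own counts are not compared. No methylation was measured, so the counts describe the sequence only.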

How the data were processed

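Per the submitters' processing notes, reads were handled with Trim Galore 0.6.10, STAR 2.7.11a, Salmon 1.10.2 and DESeq2, on GRCh38. The annotation release is not given in the sources used here. The authors deposited TPM per transcript. Their gene table carries the name CPM. Its deposited signal, however, equals reads times a constant of each library (1.02 and 1.12 for 1 read). Whole reads were recovered by dividing by it, and 100% of values were whole within 0.01. CPM uses the total of these reads. They carry no molecular identifiers. Between the columns and the samples, 0 columns were left unused.

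Members and lists were chosen with earlier results of these data known. Named genes are DDX53, DDX43 and their neighbours in the order, the extremes of each role and of the family, called members, members over 4-fold off TPM, single-exon members, and the extremes of isoform share. Genes of a role named beyond these were chosen after their values were seen. Transcripts were assigned to genes with GENCODE 29 (GRCh38), which held 201667 of 251955 transcripts with 94.8% of TPM. Neighbours in the order differ where both libraries agree in order and the Wilson intervals are separate, with transcript length taken as known.

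The libraries were compared with edgeR 4.0.16 (binomTest on recovered reads, two-sided, TMM sizes, filterByExpr, Benjamini-Hochberg, threshold 0.05), tested on simulated data. Differences are log2((CPM + 1)/(CPM + 1)), which understates changes of low genes. DESeq2 1.42.0 gave alternative size factors. Motif II was located in translations of the coding sequences of GENCODE transcripts, and identity was computed on their bases. RefSeq proteins were not used here. Not every called gene outside the family is reported here by name.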

Additional observations from a re-analysis of the deposited data

How the results depend on the processing

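No paired analysis was possible because the libraries analysed here form a single group. DDX53 ranked 47, and 49 by summed TPM or 45 without the members over 4-fold apart between reads and TPM. It ranked 47 to 48 with either library left out. DDX43 ranked 41, and 33 with merged exonic length, 42 by TPM, 43 with coding length, 39 without those members and 41 with either library left out. Coding length and the removal of members were chosen after the data were seen. The level of DDX53 was 1.75 CPM per kb, 3.35 with coding length and 2.05 by TPM. That of DDX43 was 9.46, with 8.42 by merged exonic length, 12.2 by coding length and 12.9 by TPM. Their ratio was 4.83 by merged length, 3.63 by coding length and 6.27 by TPM. With summed TPM the ratio of DDX39A to DDX39B turned to 0.835 and that of DDX19A to DDX19B to 2.01. The members detected numbered 53 at 0.1 CPM, 47 at 5 CPM and 49 by TPM. The binomial test called 6 members without a filter, 7 with DESeq2 size factors or total reads and 5 with the deposited factors. The median difference was 0.0016 with the deposited factors and -0.035 by TPM. The median top share was 83.5% at 10 TPM or more, and 83.9 to 86.3% in single libraries. Leaving out a library ends the comparison of replicates. The causes were not tested. With 11 reads or fewer per library in DDX4 and DHX58, depth limits their place.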
